A study of Mesostigma viride with 16 samples.

Results

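Mv18898-RA and Mv10940-RA are 2 of the 24431 annotated genes of the unicellular streptophyte alga *Mesostigma viride*. The study lists them among its homologs of plant histone lysine methyltransferases, under the Arabidopsis names ATX1 and SDG8 (also EFS or ASHH2). Both were among the 14297 genes that reached at least 0.5 FPKM in at least 2 libraries and were tested. The 2 genes were chosen from their expression across these same libraries, so the differences of both genes from the controls are given as a description, without p-values.

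Histone lysine methyltransferases add methyl groups to lysines of the histone tails around which DNA is wrapped. The SET domain carries out this reaction, and the mark left behind depends on which lysine is modified. In Arabidopsis, ATX1 is a trithorax-type enzyme that places H3K4 methylation, a mark of transcribed genes. SDG8 is the major H3K36 methyltransferase in Arabidopsis, and its loss leads to early flowering through reduced expression of the floral repressor FLC. These roles are known from Arabidopsis and were not measured in *M. viride*.

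The study's list assigns these names in blocks and does not pair single genes. The ATX1 block sets 5 *M. viride* genes (Mv18898-RA, Mv02735-RA, Mv06459-RA, Mv13968-RA and Mv22950-RA) against 5 Arabidopsis genes. These are ATX1, the H3K4 methyltransferases ATXR3/SDG2 and ATXR7/SDG25, and the H3K27 monomethyltransferases ATXR5 and ATXR6. The SDG8 block sets 3 genes (Mv10940-RA, Mv09974-RA and Mv04757-RA) against SDG8, SUVH2, SUVH4/KYP, SUVH5 and SUVH6. SUVH4, SUVH5 and SUVH6 place H3K9 methylation in Arabidopsis. Mv18898-RA and Mv10940-RA are the genes listed first in their blocks, and which Arabidopsis gene is closest to each was not analysed here.

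RNA-seq libraries were made from 24 day old cultures of strain NIES-296, grown in medium C at 23 °C, pH 7.5 and 50 µmol photons m-2 s-1 in a light-dark cycle. For 24 h, cells were kept in darkness, under high light (400 µmol photons m-2 s-1), in cold (12 °C), at high temperature (32 °C), at low pH (pH 6.0, set with Tris-HCl) or at high pH (pH 9.0, set with NaOH). Control 2 was untreated cells that received an equal volume of pH 7.5 medium C and is the control of the pH treatments, and Control 1 was untreated cells and is the control of the light and temperature treatments. Each condition had 2 biological replicates, except that 1 library of Control 1 was used here, which makes 15 libraries. Values are FPKM, fragment numbers corrected for transcript length and for the mapped fragments of the library, and they scale with the share of a library's fragments that a gene takes. Since each library was made from a whole culture, fewer cells with a transcript and less transcript per cell cannot be told apart.

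The high temperature libraries stood apart from the rest. The median FPKM of the tested genes was 2.98 and 2.57 at high temperature, against 7.14 to 8.58 in the other 13 libraries. Replicates of a condition correlated with r of 0.9837 to 0.9874 across genes on the log2 scale, where genes are not independent replicates. The summed FPKM was 578174 to 683704 per library. The number of fragments behind a single FPKM value is unknown.

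Neither gene was at 0 in any library, and both had low to middling expression. Mv18898-RA ranged between 1.57 and 15.3 FPKM over the 15 libraries, with a median of 6.26 FPKM. Mv10940-RA ranged between 0.193 and 13.9 FPKM, with a median of 3.67 FPKM. In Control 1, Mv18898-RA was above 69.3% of the tested genes and Mv10940-RA above 66.3%. In darkness, Mv18898-RA was above only 19.0% and 18.3% of them, and Mv10940-RA above 16.1% and 17.1%.

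**Figure D1:**
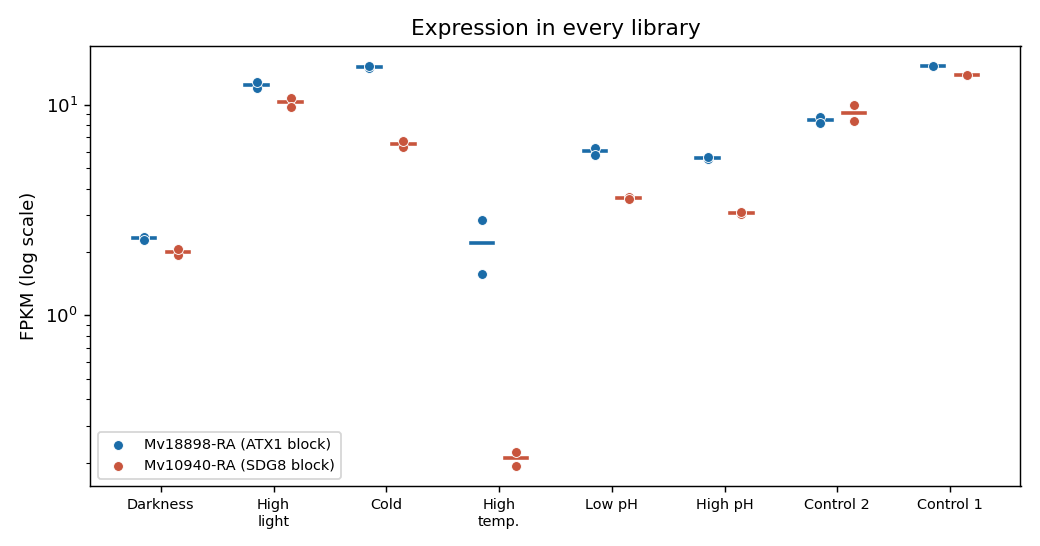
FPKM (log scale) of Mv18898-RA (blue) and Mv10940-RA (red) in every library of the 8 conditions. Points are libraries and bars are condition means; both genes sit near 2 FPKM in darkness, and at high temperature Mv10940-RA drops to 0.193 and 0.226 FPKM while Mv18898-RA stays at 2.83 and 1.57 FPKM.

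Both genes had low values in darkness. Mv18898-RA, the gene of the ATX1 block, had 2.37 and 2.28 FPKM in darkness, against 15.3 FPKM in Control 1. Mv10940-RA, the gene of the SDG8 block, had 1.93 and 2.07 FPKM in darkness, against 13.9 FPKM in Control 1. Both replicates in darkness thus lay far below every untreated library, including those of Control 2 (8.76 and 8.16 FPKM for Mv18898-RA, and 8.40 and 9.96 FPKM for Mv10940-RA). The log2 difference of mean log2(FPKM + 0.1) from Control 1 was -2.66 ± 0.237 (SE) for Mv18898-RA and -2.74 ± 0.139 for Mv10940-RA. The SE comes from a linear model across all 15 libraries and assumes that the single Control 1 library varies like the replicates of the other conditions.

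For all other genes, a gene is called when its Benjamini-Hochberg adjusted p in limma is at most 0.01 and its difference at least 2-fold. No call of Mv18898-RA or Mv10940-RA is given as a result, only the size of the difference. The closing section applies the rule to both genes solely to describe how the settings act. Both were more than 2-fold lower in darkness, in a comparison with 4.02% of the 14297 tested genes called lower and 1.13% higher relative to Control 1. Called shares, here and below, also require the adjusted p, so they are not the shares of genes past 2-fold. Only 0.259% of the tested genes had a lower difference than Mv18898-RA, and 0.224% a lower one than Mv10940-RA. Relative to Control 2, the differences in darkness were -1.82 ± 0.193 and -2.14 ± 0.113. Both were again more than 2-fold lower (3.15% of tested genes were called lower).

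High light gave mean values of both genes between those of Control 2 and Control 1. Mv18898-RA had 12.03 and 12.88 FPKM under high light, below the 15.3 FPKM of Control 1 but above both libraries of Control 2. Its log2 difference was -0.29 ± 0.237 from Control 1 and 0.55 ± 0.193 from Control 2. Mv10940-RA had 10.8 and 9.79 FPKM under high light, again below Control 1 (13.9 FPKM), and its values overlapped those of Control 2. Its log2 difference was -0.43 ± 0.139 from Control 1 and 0.17 ± 0.113 from Control 2. Both genes were within 2-fold of either control. Of all tested genes, 2.26% were called lower and 3.55% higher relative to Control 1, and 2.73% lower relative to Control 2.

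The 2 ends of the light series can also be set against each other without a control. High light exceeded darkness by 2.37 ± 0.193 on the log2 scale for Mv18898-RA, a ratio of mean FPKM of 5.35. For Mv10940-RA, high light exceeded darkness by 2.31 ± 0.113, a ratio of 5.16. The lowest high light library was thus well above the highest darkness library for each gene.

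Cold separated the 2 genes. Mv18898-RA had 14.97 and 15.30 FPKM in cold, against 15.26 FPKM in Control 1. The Control 1 value lay between both cold replicates, and the log2 difference was -0.01 ± 0.237. Mv10940-RA had 6.28 and 6.74 FPKM in cold, against 13.9 FPKM in Control 1, a log2 difference of -1.09 ± 0.139. This was just past 2-fold, in a comparison in which 8.28% of tested genes were called lower and 3.76% higher. Among the tested genes, 9.11% had a lower difference in cold than Mv10940-RA.

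The choice of control matters in cold. Relative to Control 2, Mv18898-RA was higher in cold by 0.83 ± 0.193 and Mv10940-RA lower by a log2 difference of -0.49 ± 0.113, and both were within 2-fold (6.9% of tested genes were called lower). For Mv10940-RA, both cold replicates were still below both libraries of Control 2. Its difference from Control 1 missed the 2-fold limit after the libraries were scaled to equal totals (-0.96) and after median-ratio scaling, which divides each library by its median ratio to a common reference (-0.88).

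High temperature gave the lowest mean FPKM of both genes, by very different amounts. Mv10940-RA had 0.193 and 0.226 FPKM at high temperature, against 13.9 FPKM in Control 1. Its mean FPKM was 66.4-fold lower, and the log2 difference was -5.50 ± 0.139. At such low values the difference depends on the added constant, and it was -3.62 with 1 added and -5.99 with 0.01 added in place of 0.1. This gene, listed first under the name of an H3K36 methyltransferase, was above only 4.81% and 7.85% of the tested genes in the high temperature libraries. Only 0.322% of the tested genes had a lower difference there, and even after quantile normalization, which gives every library the same distribution, the difference was -4.39.

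Mv18898-RA had 2.83 and 1.57 FPKM at high temperature, against 15.3 FPKM in Control 1, with a log2 difference of -2.80 ± 0.237. The replicates at high temperature were farther apart than those of any other condition for this gene, and they enclosed both of its values in darkness. The level relative to other genes was less changed, since Mv18898-RA was above 48.8% and 39.8% of the tested genes at high temperature, against 69.3% in Control 1. A lower difference than that of Mv18898-RA was found for 18.7% of the tested genes. Its difference was -1.51 after median-ratio scaling and -1.16 after quantile normalization. Under these scalings its difference in darkness was larger, at -2.55 and -2.79, so its lowest condition depends on the scaling.

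High temperature came with a wide shift, in which 55.3% of tested genes were called lower and 6.83% higher relative to Control 1 and the median tested gene had a log2 difference of -1.29. Under the 2 last scalings, which bring that median to -0.04 and -0.01, both genes were still more than 2-fold lower. Relative to Control 2 the differences were -1.95 ± 0.193 for Mv18898-RA and -4.90 ± 0.113 for Mv10940-RA, both more than 2-fold lower (52.2% of tested genes were called lower). High temperature compared directly with cold gave -2.79 ± 0.193 for Mv18898-RA and -4.42 ± 0.113 for Mv10940-RA.

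**Figure D2:**
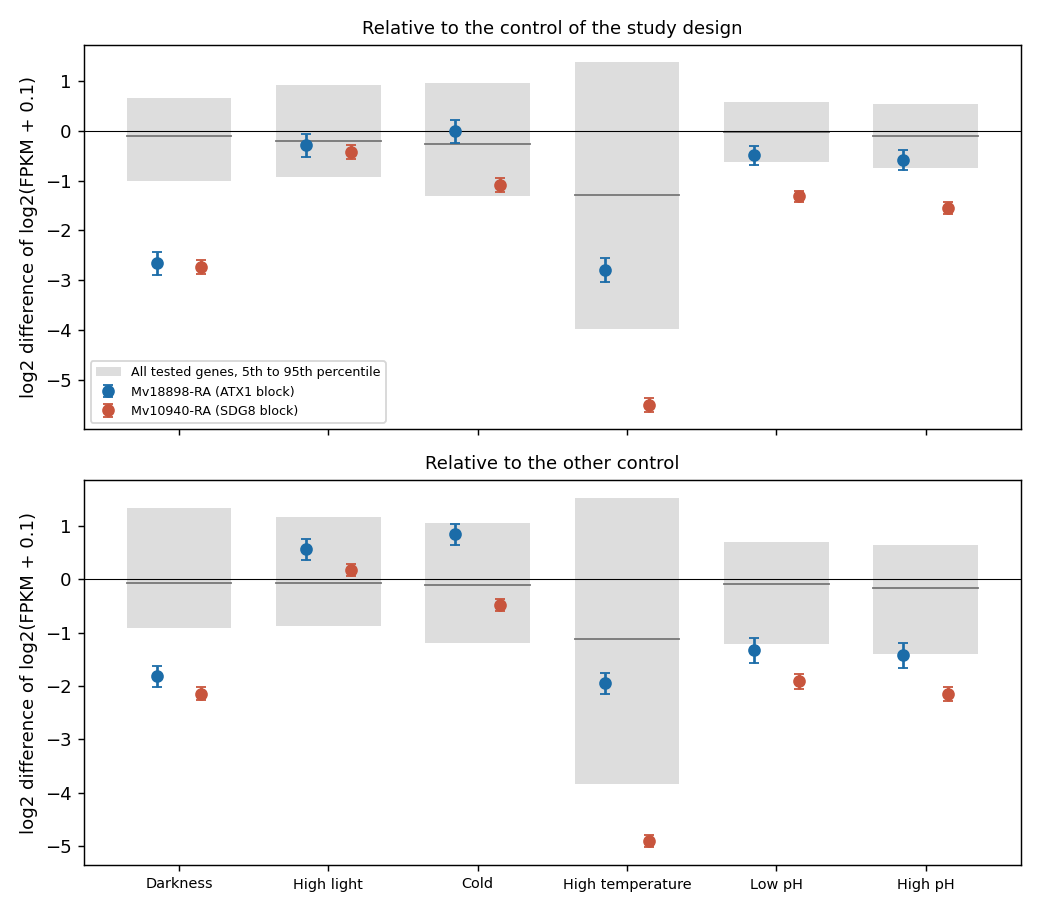
Difference of mean log2(FPKM + 0.1) between each treatment and a control for Mv18898-RA (blue) and Mv10940-RA (red), with bars of 1 SE from the fit; the upper panel uses the control of the study design and the lower panel the other control. The grey box spans the 5th to 95th percentile of all 14297 tested genes and its line their median; in darkness both genes lie below the box against either control, and at high temperature only Mv10940-RA does.

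Both pH treatments gave lower values of both genes, and more so for Mv10940-RA. Mv10940-RA had 3.67 and 3.58 FPKM at low pH and 3.02 and 3.10 FPKM at high pH, against 8.40 and 9.96 FPKM in Control 2. All 4 pH libraries were below both libraries of Control 2. The log2 difference was -1.31 ± 0.113 at low pH and -1.55 ± 0.113 at high pH. Calls among all tested genes were rare in these comparisons. At low pH, 0.902% of tested genes were called lower and 0.664% higher, and at high pH 1.46% were called lower and 0.79% higher. A lower difference than that of Mv10940-RA was found for 0.874% of the tested genes at low pH and 0.636% at high pH.

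Mv18898-RA had 6.26 and 5.75 FPKM at low pH and 5.54 and 5.68 FPKM at high pH, against 8.76 and 8.16 FPKM in Control 2. The groups did not overlap, but the log2 differences of -0.49 ± 0.193 and -0.58 ± 0.193 were under 2-fold. Both were smaller in size than the difference of this gene between the controls (-0.84 ± 0.237). Relative to Control 1, which has higher values of both genes, the differences were -1.33 ± 0.237 at low pH and -1.43 ± 0.237 at high pH. These were more than 2-fold, as were those of Mv10940-RA (-1.91 ± 0.139 and -2.15 ± 0.139), in comparisons with 5.01% of tested genes called lower at low pH and 6.72% at high pH.

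The 2 pH treatments lie on opposite sides of the pH of the medium, and the genes differed little between them. High pH minus low pH was -0.10 ± 0.193 for Mv18898-RA and -0.24 ± 0.113 for Mv10940-RA. The replicates of Mv10940-RA at high pH were both below those at low pH.

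The untreated libraries themselves were not alike. Control 2 minus Control 1 was -0.84 ± 0.237 for Mv18898-RA and -0.60 ± 0.139 for Mv10940-RA, with mean FPKM ratios of 0.555 and 0.66. Both libraries of Control 2 were below the Control 1 library for each gene. Both differences were under 2-fold. Of the tested genes, 460 (3.22%) were called lower in Control 2 and 25 higher. These calls rest on a spread estimated from the replicates of the other conditions as well. With 1 library of Control 1, a difference between the controls and the deviation of that single library cannot be told apart.

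Ordered by mean FPKM, Mv18898-RA ran as high temperature (2.2 ± 0.888, SD, n = 2), darkness (2.33 ± 0.0622), high pH (5.61 ± 0.0998), low pH (6.0 ± 0.363), Control 2 (8.46 ± 0.422), high light (12.5 ± 0.606), cold (15.1 ± 0.234) and Control 1 (15.3 FPKM, 1 library). The neighbours that overlapped were high temperature with darkness and cold with Control 1. Mv10940-RA ran as high temperature (0.209 ± 0.023), darkness (2.0 ± 0.0977), high pH (3.06 ± 0.0598), low pH (3.62 ± 0.0647), cold (6.51 ± 0.327), Control 2 (9.18 ± 1.1), high light (10.3 ± 0.719) and Control 1 (13.9 FPKM, 1 library). Only Control 2 and high light overlapped. The place of cold is the main difference between these orders.

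The ratio of the 2 genes within a library does not change when all values of the library are multiplied by 1 factor. Quantile normalization is not such a scaling and can change the ratio. Mv18898-RA over Mv10940-RA was 1.23 and 1.10 in darkness, 1.11 and 1.32 under high light, 1.04 and 0.819 in Control 2, and 1.1 in Control 1. The light libraries thus lay at or above the highest untreated library, that of Control 1. The ratio was 2.38 and 2.27 in cold, 1.71 and 1.61 at low pH and 1.83 and 1.83 at high pH. These values lay above every untreated and every light library. At high temperature the ratio was 14.6 and 6.96, and these replicates differed more from each other than those of any other condition. Mv10940-RA was at only 0.193 and 0.226 FPKM there, so small changes of that value move the ratio much.

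**Figure D3:**
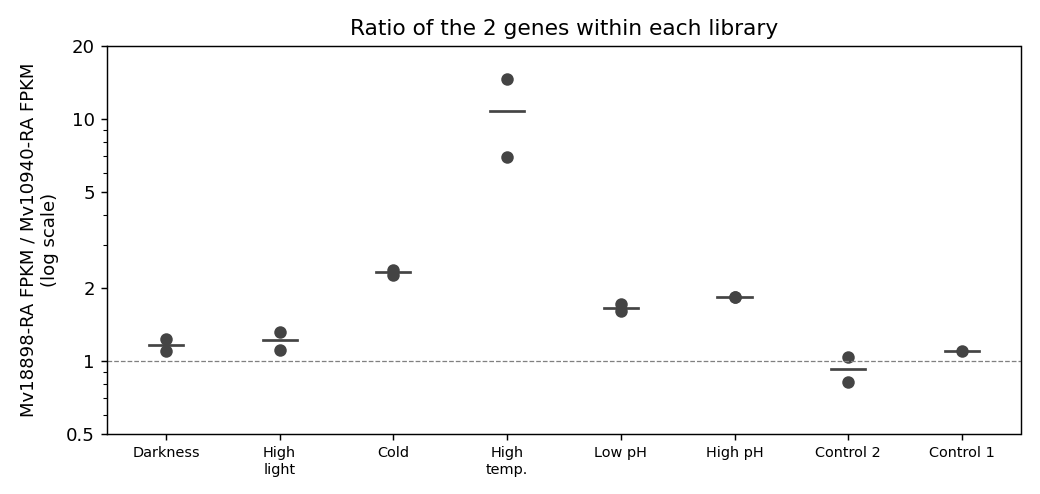
Ratio of Mv18898-RA FPKM to Mv10940-RA FPKM within each library (log scale), with points for libraries and bars for condition means. Light and untreated libraries lie between 0.819 and 1.32, pH libraries between 1.61 and 1.83, cold libraries at 2.38 and 2.27, and high temperature libraries at 14.6 and 6.96.

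Over the 15 libraries the log2 values of the genes had a Pearson correlation of 0.86 and a Spearman correlation of 0.854. Without the high temperature libraries they were 0.875 and 0.808 (13 libraries). Libraries of 1 condition share that condition, and these values are a description of the libraries. Of the 12705 genes compared (mean FPKM of 1 or more), 96.9% correlated less with Mv18898-RA than Mv10940-RA did, and 77.3% less with Mv10940-RA than Mv18898-RA did. Without high temperature these shares were 96.1% and 98.1%. Both genes were chosen for their differences between conditions in these same libraries, so these shares describe them and test nothing.

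The other 6 genes of the blocks allow a comparison with the genes listed beside the 2 first named. In darkness 0 of these 6 genes were called by limma, near the share of all tested genes called (4.02% lower and 1.13% higher), with 2 at an unadjusted p under 0.05. Those were Mv06459-RA of the ATX1 block (log2 difference -0.67, adjusted p = 0.00656) and Mv09974-RA of the SDG8 block (-0.43, adjusted p = 0.0013), both lower but under 2-fold. The share of all tested genes at an unadjusted p under 0.05 was not counted, in darkness or in the comparisons below. The median of the 6 genes in darkness was -0.17, against -0.10 for all tested genes. Mv13968-RA had 6.11 FPKM in both darkness libraries, against 6.29 FPKM in Control 1.

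Likewise 0 of the 6 genes at high light, cold and either pH were called by limma, with 0, 3, 2 and 3 of them at an unadjusted p under 0.05 at high light, cold, low pH and high pH. With 0.902% to 8.28% of all tested genes called lower in these comparisons, a count of 0 of 6 does not set the block genes apart from other genes. Mv02735-RA of the ATX1 block came nearest to a call, with 2.001 and 2.331 FPKM at high pH, against 4.32 and 4.43 FPKM in Control 2. Its log2 difference was -0.99 at high pH (limma, adjusted p = 0.00144) and -0.79 at low pH (adjusted p = 0.00684), so it was lower at both pH values without reaching 2-fold on this scale. Both differences were larger in size than those of Mv18898-RA (-0.58 at high pH and -0.49 at low pH). At high pH Mv02735-RA was called when 0.01 was added in place of 0.1 (-1.01) and with equal totals (-1.02). Without high pH replicate 2 its difference was -1.09. Mv04757-RA of the SDG8 block, by contrast, had 9.41 and 10.1 FPKM at high pH, against 11.1 and 9.65 FPKM in Control 2.

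Relative to Control 1, high temperature gave lower calls for 5 of the 6 genes, beside the 55.3% of all tested genes. Their log2 differences from Control 1 were -3.28 for Mv04757-RA (limma, adjusted p = 3.79e-10), -3.07 for Mv06459-RA (adjusted p = 4.51e-09), -2.74 for Mv02735-RA (adjusted p = 1.8e-07), -2.30 for Mv13968-RA (adjusted p = 6.73e-06) and -1.10 for Mv22950-RA (adjusted p = 0.00018). Mv09974-RA had 11.2 and 10.3 FPKM, against 20.7 FPKM in Control 1, a difference of -0.94 (adjusted p = 2.57e-07) that was under 2-fold. The median over the 6 genes was -2.52, against -1.29 for all tested genes. The direction of Mv22950-RA depends on scaling, since it was 0.18 after median-ratio scaling and 0.61 after quantile normalization. No other gene of the blocks had a difference as large as that of Mv10940-RA. The difference of Mv18898-RA (-2.80) was smaller in size than those of Mv04757-RA and Mv06459-RA, and near that of Mv02735-RA.

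**Figure D4:**
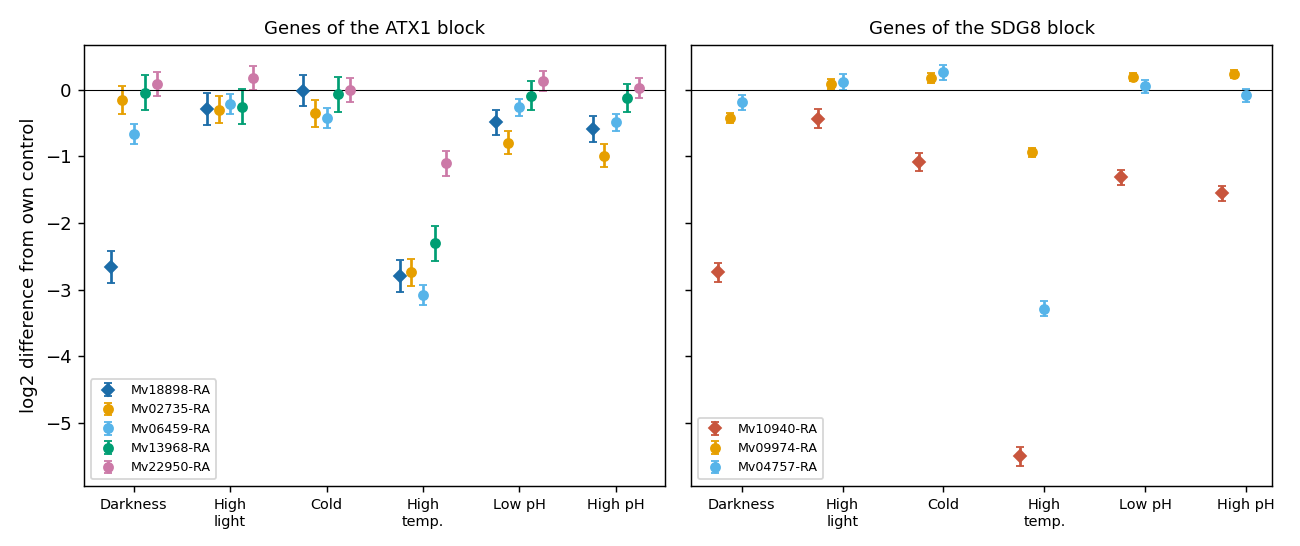
Log2 difference (FPKM + 0.1) of every gene of the ATX1 block (left) and the SDG8 block (right) from the control of the study design, with bars of 1 SE; diamonds mark Mv18898-RA and Mv10940-RA. In darkness the diamonds lie at -2.66 and -2.74 and the other block genes between -0.67 and 0.09, and at high temperature every gene of both blocks lies below 0 on this scale.

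Leaving out high temperature, the highest condition mean was 6.56-fold the lowest for Mv18898-RA and 6.97-fold for Mv10940-RA. For the other 6 block genes this ratio was between 1.21 and 2.02. On the log2 scale the range over these 7 conditions was 2.66 and 2.74, wider than in 96.6% and 97.0% of the tested genes, whose median range was 0.882. With high temperature included, Mv10940-RA had a range of 5.50 and Mv18898-RA of 2.80, against a median of 1.97. As the 2 genes were chosen for their differences between conditions, these ranges describe them and test nothing.

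The share of each gene in its block can be read within a library. Mv18898-RA made up 9.24% and 8.95% of the summed FPKM of its 5-gene block in darkness, against 35.3% in Control 1. Its share was 32.5% and 33.5% under high light, 38.9% and 39.0% in cold, and 29.2% and 25.8% at high temperature. At low pH it was 21.4% and 20.1% and at high pH 21.8% and 20.7%, against 25.0% and 23.9% in Control 2. Its share was thus lowest in darkness. At high temperature the sum of the block was itself low, at 9.69 and 6.09 FPKM, against 43.3 FPKM in Control 1.

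Mv10940-RA made up 7.52% and 7.92% of its 3-gene block in darkness, 25.1% and 23.1% under high light, 15.6% and 15.7% in cold, and 1.56% and 1.98% at high temperature, against 31.4% in Control 1. At low pH the share was 9.71% and 9.48% and at high pH 8.17% and 8.33%, against 21.2% and 24.6% in Control 2. In contrast to Mv18898-RA, its share was lower than in the control of the study design in every library of all 6 treatments.

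**Figure D5:**
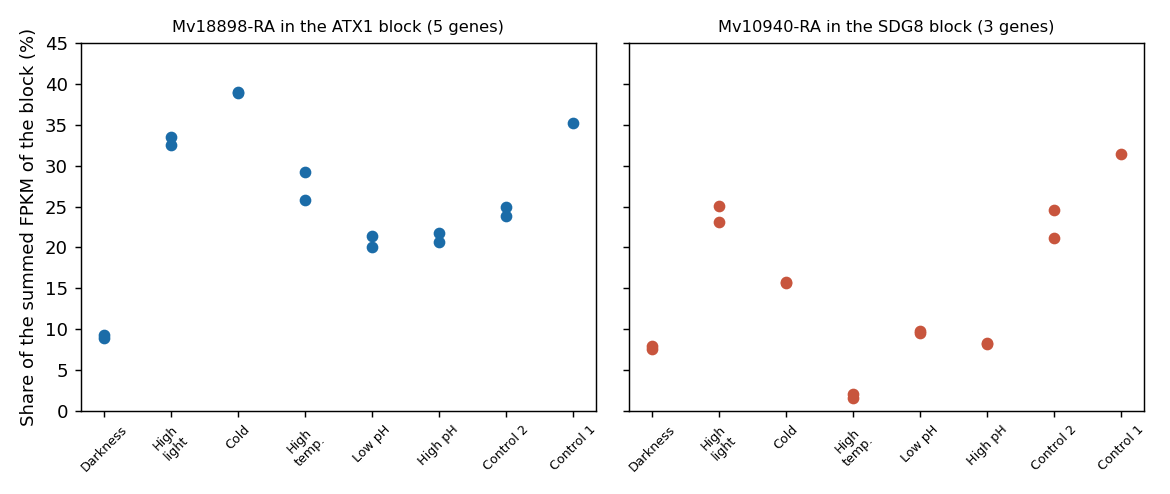
Share of Mv18898-RA in the summed FPKM of the 5 genes of the ATX1 block (left) and of Mv10940-RA in that of the 3 genes of the SDG8 block (right), in percent, with 1 point per library. The left share is lowest in darkness (9.24% and 8.95%) and the right share at high temperature (1.56% and 1.98%).

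Other genes of histone modification were followed in a list of 11 homologs from the same source, of which 10 were analysed here. The list holds homologs of the demethylase FLD, of FVE (a partner of histone deacetylases), of the Polycomb subunit FIE and of the acetyltransferases HAC1 and HAM1. It also holds a homolog of the ubiquitin protease UBP26. Further genes come from the blocks of the deacetylase HDA6 and of HUB1 and UBC1 (which ubiquitinate histone H2B), without a pairing to these single names. These roles are known from Arabidopsis.

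In the 5 comparisons other than high temperature 0 of the 10 genes were called by limma relative to the control of the study design. At an unadjusted p under 0.05 there were 4 genes in darkness, 2 under high light, 2 in cold, 4 at low pH and 6 at high pH. The share of all tested genes at that unadjusted p was not counted, so these counts do not set the list apart. With 0.902% to 8.28% of all tested genes called lower in these comparisons, 0 of 10 does not set the list apart either. High temperature gave lower calls for 7 of the 10 genes, beside the 55.3% of all tested genes. The largest difference among those called was that of Mv09530-RA (FLD), which had 0.151 and 0.229 FPKM at high temperature, against 4.9 FPKM in Control 1 (log2 difference -4.12, limma, adjusted p = 1.17e-09). In darkness the same gene had 5.13 and 5.25 FPKM, with a difference of 0.08 (adjusted p = 0.778). One of the 10 genes, Mv08890-RA (FVE), was listed at 0 in 6 libraries and gave no call in any of these comparisons.

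The genes whose pattern was most like that of each gene were sought by Pearson correlation of log2(FPKM + 0.1) among the 12705 genes. Over all 15 libraries, the closest to Mv18898-RA were Mv07922-RA (r = 0.972), Mv10367-RA (0.969) and Mv19193-RA (0.96). The closest to Mv10940-RA were Mv07906-RA (0.987), Mv07103-RA (0.986) and Mv02235-RA (0.985). None of these carries a name in the study's gene lists. The number of genes with r over 0.9 was 143 for Mv18898-RA and 1271 for Mv10940-RA.

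Mv07922-RA averaged 13.6 ± 0.478 FPKM in darkness, 75.8 ± 2.84 FPKM in cold and 6.8 ± 0.515 FPKM at high temperature (SD, n = 2 each), against 75.2 FPKM in Control 1. Mv07906-RA averaged 3.27 ± 0.134 FPKM in darkness and 0.358 ± 0.0831 FPKM at high temperature, against 21.8 FPKM in Control 1.

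Without high temperature the closest genes were different ones. They were Mv18367-RA (r = 0.989), Mv21302-RA (0.986) and Mv06805-RA (0.986) for Mv18898-RA, and Mv17155-RA (0.983), Mv16619-RA (0.977) and Mv15781-RA (0.973) for Mv10940-RA, over 13 libraries. There were then 315 genes with r over 0.9 for Mv18898-RA and 151 for Mv10940-RA. Among the genes of the blocks and of the histone list, the closest to Mv18898-RA was Mv17580-RA (block of HUB1, 0.81) with high temperature and Mv16233-RA (FVE, 0.838) without it. The closest to Mv10940-RA was Mv06459-RA of the ATX1 block in both cases (0.942 and 0.891). Mv06459-RA differed far less between conditions, with 7.58 FPKM in both darkness libraries, against 12.1 FPKM in Control 1.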

How the data were processed

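The analysis covered 15 RNA-seq libraries of *M. viride* from 8 conditions (2 biological replicates each, and replicate 2 alone for Control 1). The authors trimmed and filtered the paired-end reads of stranded, poly(A)-selected libraries, mapped them to their *M. viride* genome assembly with Hisat2 and calculated the deposited FPKM values of 24431 genes with Cufflinks. How Cufflinks treated reads shared by similar genes was not given in the sources used here beyond its default settings. FPKM values depend on the rest of the library, so a shift of many genes moves all of them.

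The 14297 genes that reached 0.5 FPKM in 2 or more libraries were fitted with limma 3.58.1 in R 4.3.3 on log2(FPKM + 0.1), with 1 mean per condition, a variance trend and 7 residual degrees of freedom. Adding 0.1 makes differences of low values smaller than their ratios. Genes were called at an adjusted p (Benjamini-Hochberg over all tested genes) no higher than 0.01 and a difference of at least 2-fold. Only the limma fit was run on simulated data, as log2 values with normal noise, for darkness against Control 1 and low pH against Control 2. The FPKM minimum, the scalings, the ratios and the correlations were not tested in this way. Whole fragments could not be recovered from the FPKM values, so no test for counts was run, and the precision that depth gives a low value is unknown.

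Mv18898-RA and Mv10940-RA and the gene lists were chosen with earlier results of these data known. The text names these genes, the other genes of their blocks, histone genes called outside high temperature (there were none) and the one with the largest change there, the genes most correlated with each, and the most correlated of the blocks and the histone list. Mv08890-RA was named after its values had been seen. Settings were varied in the added value, the minimum, the control, the scaling, the replicate block, the groups fitted and the libraries left out. A fit without high temperature was added after the data had been seen.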

Additional observations from a re-analysis of the deposited data

How the results depend on the processing

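For Mv18898-RA and Mv10940-RA, 14 differences (both genes in 6 treatments and between the controls) were computed under 226 alternatives. The call rule is applied to both genes here only to describe how the settings act on them. Of the alternatives, 217 kept their side of the rule, 7 lost the call, 2 gained one and 0 reversed. Some settings (the minimum, the groups fitted, a looser limit on the adjusted p) left the log2 differences unchanged. Those could act only through the test, so the 217 does not measure robustness. As both genes were chosen from these same libraries, a kept call does not support either difference. The 7 alternatives that ended a call all concerned Mv10940-RA in cold, with log2 differences of -0.99 when 1 was added, -0.49 relative to Control 2, -0.69 relative to all untreated libraries, -0.96 with equal totals, -0.88 after median-ratio scaling, -0.89 after quantile normalization and -1.09 with only the 2 groups fitted, where fewer libraries estimate the spread. Relative to the other control, 2 differences of Mv18898-RA became calls, -1.33 at low pH and -1.43 at high pH. With either high temperature library left out, the difference of Mv18898-RA at high temperature was -3.20 or -2.39. With either cold library left out, that of Mv10940-RA in cold was -1.035 or -1.136. The single library of Control 1 could not be left out.

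With the replicate number as a block, the differences from Control 1 were -2.73 in darkness and -2.86 at high temperature for Mv18898-RA, and -2.71 and -5.47 for Mv10940-RA, and no call of either gene changed. Same-numbered libraries deviated together in none of 21 pairs of conditions (correlations of -0.0807 to 0.0655), so the numbers were not taken to pair the libraries.

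Scaling moved high temperature most. Over all tested genes, 7909 were called lower and 977 higher there, against 4920 and 2388 with the upper quartile, 3863 and 3325 after median-ratio scaling and 3263 and 3086 after quantile normalization. Mv22950-RA changed sign after median-ratio scaling (0.18) and after quantile normalization (0.61), without a call in either. Of the other 6 block genes, 5 were called lower at high temperature, 2 after quantile normalization and 3 with only the 2 groups fitted. The correlation of Mv18898-RA with Mv10940-RA was 0.699 after median-ratio scaling. The fit to only the 2 groups called 331 genes lower in darkness and 364 lower in cold, against 575 and 1184. The single Control 1 library limits every light and temperature comparison.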
